A study of Homo sapiens with 48 samples.

Results

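Cells of H1975, a lung cancer line of the non-small cell type with mutant EGFR, were exposed for 24 h to 1 mg/mL CKI (compound kushen injection, a herbal preparation) together with 75 µM gefitinib, and were compared with cells given 75 µM gefitinib alone. The comparison uses 6 of the 48 libraries of the series, chosen by their labels: 3 with CKI and gefitinib and 3 with gefitinib. Raw counts per gene were measured by unstranded paired-end RNA sequencing. Further groups of 3 libraries, all at 24 h, serve to place it: 2 mg/mL CKI with 75 µM gefitinib, 1 mg/mL CKI with 50 µM gefitinib, 1 mg/mL CKI alone, 50 µM gefitinib alone and untreated cells. All cells were of 1 line in the same medium with serum. The series calls its samples biological replicates without saying whether they came from separate cultures. The p-values therefore measure the spread within groups, pooled over all 48 libraries, which may be technical. The question was what the preparation adds to gene expression in cells also exposed to gefitinib, a drug to which the series describes the line as resistant.

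Gefitinib blocks the kinase of EGFR, the receptor that drives growth through ERK signalling. ERK output is read in its feedback genes, such as DUSP and SPRY family members, and in immediate early genes such as FOS. Sterol synthesis genes are switched on by SREBP transcription factors when sterols run low, interferon-stimulated genes by a complex that holds IRF9, and inducible chaperones by HSF1 when proteins misfold. These roles are background and not results of the present data.

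The libraries with CKI and gefitinib held 26264162, 23928189 and 20609031 counts, against 16806799, 17000501 and 17780867 counts with gefitinib alone. A floor of 3 counts corresponded to 0.114 to 0.146 CPM (counts scaled to a common library total) with CKI and gefitinib and 0.169 to 0.178 CPM with gefitinib, which covers counting error only. Libraries 2 and 3 with CKI and gefitinib carried liver transcripts: ALB, the gene of serum albumin, had 3302 and 2906 counts there, 4 counts in library 1, and 4, 5 and 0 counts with gefitinib. APOB, the gene of apolipoprotein B, had 443 and 426 counts in libraries 2 and 3 and 0 counts in the other 4. Intestine markers were present there too, such as MUC2 with 51 and 54 counts, against 0 in library 1 and with gefitinib. Genes that behave this way across the series, and all liver and intestine markers, were set apart: 100 of 15789 tested genes, of which 76 were higher and 2 lower. Each of the 10 largest rises and 10 largest falls named below therefore also had to keep library 1, which lacks these transcripts, on the same side as libraries 2 and 3. The catalogue number in the labels is that of another line, MCF-7, from breast cancer. NKX2-1, a lung lineage factor, was at 29.3 to 34.3 CPM with CKI and gefitinib and 60.2 to 72.7 CPM with gefitinib, while the estrogen receptor gene ESR1 was at 0.0392 to 0.284 CPM and 0.0577 to 0.0605 CPM. Other luminal breast markers were expressed, such as XBP1 at 250 to 276 CPM with CKI and gefitinib and 179 to 187 CPM with gefitinib. Of 10 such markers tested 3 rose and 3 fell (median 0.03). The summed level of 21 lung and airway markers was 2590 to 3100 CPM with CKI and gefitinib and 6190 to 6730 CPM with gefitinib, led by keratins. SCGB3A1, SCGB3A2 and AGER were at 0 in all 6 libraries. The sum does not stand for the list, as of 11 members tested 3 rose and 5 fell (median -0.12). ABCA3, for example, was at 133 to 142 CPM with CKI and gefitinib and 92.3 to 106 CPM with gefitinib. In such bulk samples fewer cells of a type and less RNA per cell cannot be told apart. Mitochondrial RNR2 took 1.04% to 1.09% of counts with CKI and gefitinib and 0.674% to 0.886% with gefitinib.

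Adding CKI changed about as many genes upward as downward. Of 15789 genes 5456 passed adjusted p under 0.05 (34.6%), 2724 higher (17.3%) and 2732 lower (17.3%) with CKI. Without the genes set apart, 2648 were higher and 2730 lower, of which 460 and 502 differed by over 2-fold. The median log2 fold change of all genes was 0.005. With library-size scaling in place of the TMM factors that median was 0.107, and 3793 genes were higher and 1873 lower. Fold changes below are log2 ± SE from edgeR, positive when higher with CKI. The share called over all genes, 17.3% in either direction, is the background for the list counts of this main fit. List counts from refits have another background. With library-size scaling it is the 3793 higher and 1873 lower genes above. The batch term called 28.1% of genes in both directions together, and leaving out 1 library of the series gave 4134 to 4909 genes. The members of the lists were chosen with earlier results of these data known, so their counts are a description.

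The largest rises were those of HSPA6, HTRA3, IL24, ARC, HES7, CYP1A1, ANGPTL4, NKD2, CXCL8 and TNFRSF1B, by 5.13 to 2.43. HSPA6, an inducible cytosolic chaperone of the HSP70 family that is nearly silent without proteotoxic stress, was at 72.8, 94.1 and 93.1 CPM with CKI and gefitinib and 2.48, 2.56 and 2.36 CPM with gefitinib (5.13 ± 0.17, adjusted p = 5.46e-27). Every library with CKI and gefitinib, library 1 included, was far above every library with gefitinib alone, though absence of overlap was a condition for naming. HTRA3, a secreted serine protease, was at 10.1, 11.1 and 13.3 CPM against 0.665, 0.232 and 0.346 CPM with gefitinib (4.78 ± 0.30, adjusted p = 1.47e-16). HES7, a transcriptional repressor of the Notch pathway, rose by 3.61 ± 0.29. ANGPTL4, a secreted inhibitor of lipoprotein lipase, was at 42.9, 33.6 and 35.1 CPM against 6.35, 5.52 and 4.67 CPM with gefitinib (2.76 ± 0.27). NKD2, an inhibitor of Wnt signalling, and TNFRSF1B, a tumor necrosis factor receptor, rose by 2.75 ± 0.23 and 2.43 ± 0.31.

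The largest falls were those of SEMA5B, MIR210HG, NKAIN4, IFI44L, MGP, OLFML3, SAMD11, WISP2, HMGCS1 and SLCO2A1, by 3.11 to 2.24. SEMA5B, a semaphorin guidance gene, was at 2.77, 2.39 and 2.17 CPM with CKI and gefitinib and 17.7, 21.6 and 24.4 CPM with gefitinib (-3.11 ± 0.33, adjusted p = 3.6e-09). MIR210HG, the host transcript of a microRNA induced by hypoxia, was at 1.1, 1.14 and 1.29 CPM against 8.1, 9.06 and 10.3 CPM with gefitinib (-2.96 ± 0.29). WISP2, a matricellular protein gene, was at 69.9, 95.5 and 97.7 CPM against 449, 393 and 464 CPM with gefitinib (-2.31 ± 0.23). Absence of overlap between the groups was a condition for naming these falls and the rises above, and is no result. Over all genes 26% had no overlap with CKI higher and 25.7% with CKI lower. MGP, an inhibitor of calcification, and SLCO2A1, a prostaglandin transporter, fell by 2.44 ± 0.22 and 2.24 ± 0.17, OLFML3 and NKAIN4 by 2.34 ± 0.16 and 2.87 ± 0.26, and SAMD11 by 2.33 ± 0.29.

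**Figure D1:**
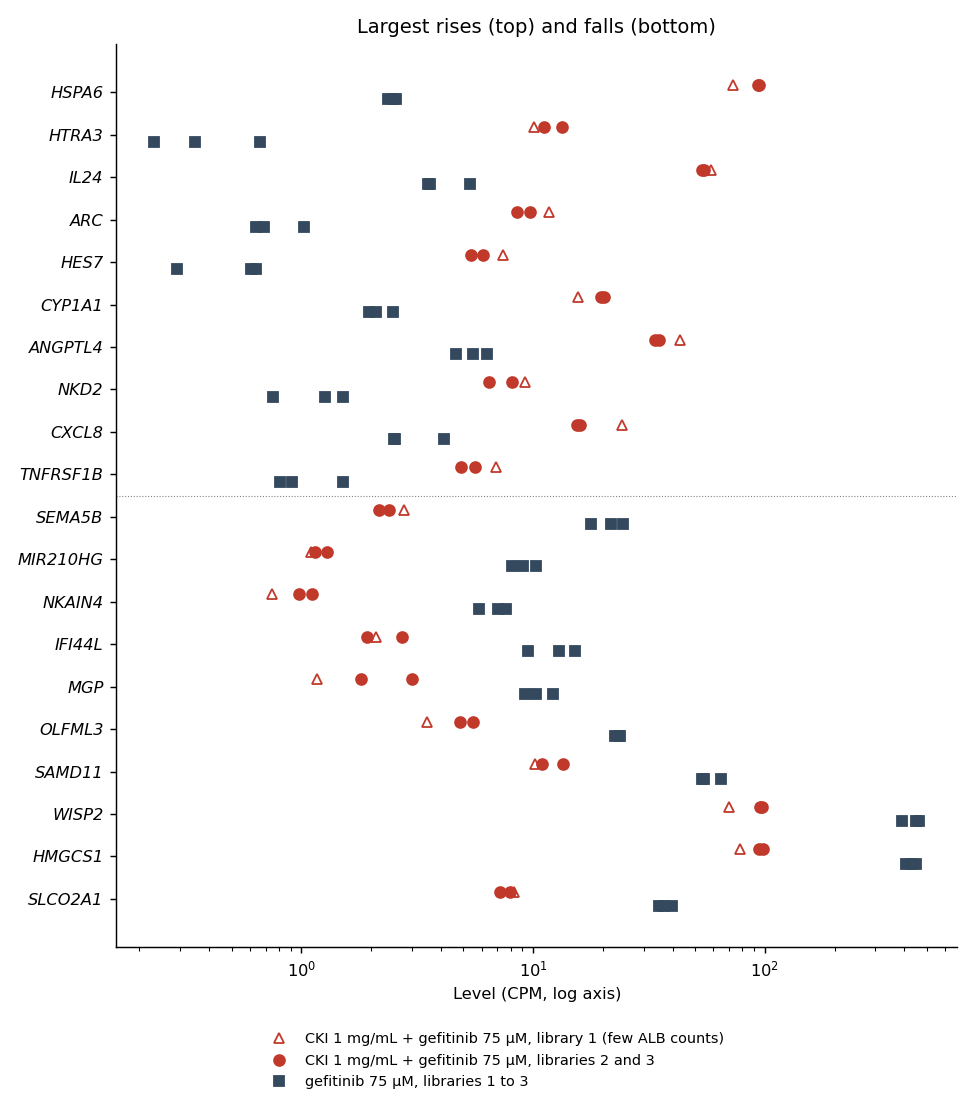
Level in CPM (log axis) of the 10 largest rises and 10 largest falls, 1 point per library, with CKI and gefitinib above gefitinib alone for each gene. Library 1 with CKI and gefitinib, which has few ALB counts, is the open triangle. It lies with libraries 2 and 3 and apart from all gefitinib libraries in each of the 20 genes, as the choice of genes required.

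HSPA6 rose far more than the other cytosolic chaperones. Of 23 members tested 6 rose and 3 fell (median 0.15, range -0.78 to 5.13), against 17.3% of all genes in either direction. HSPA4L, a co-chaperone of the HSP110 family, was at 12.4, 11 and 12 CPM with CKI and gefitinib and 5.08, 4.53 and 4.9 CPM with gefitinib (1.29 ± 0.17). STIP1, which links HSP70 to HSP90, and AHSA1, which activates HSP90, rose by 0.30 ± 0.09 and 0.25 ± 0.08. Neither call held with only library 1 for CKI (adjusted p = 0.0795 and 0.0683), where 3 members rose and 3 fell. AHSA1 also lost it without library 3 with gefitinib (adjusted p = 0.0574). The major inducible genes HSPA1A and HSPA1B, near-identical copies whose counts cannot be cleanly separated, were at 0.14 and 0.25 and were not called, while HSPA8 and HSPB1 fell by 0.73 and 0.78. The promoter window of HSPA6 is shown because that gene moved most. In the RefSeq table of GRCh38.p14, which runs from 250 bases before the start to 50 after it, the window on the plus strand is chr1:161524290-161524589. The capitals mark matches to GAANNTTC, the core of a heat shock element, searched on both strands; they begin at -180 and -69 from the start.
HSPA6: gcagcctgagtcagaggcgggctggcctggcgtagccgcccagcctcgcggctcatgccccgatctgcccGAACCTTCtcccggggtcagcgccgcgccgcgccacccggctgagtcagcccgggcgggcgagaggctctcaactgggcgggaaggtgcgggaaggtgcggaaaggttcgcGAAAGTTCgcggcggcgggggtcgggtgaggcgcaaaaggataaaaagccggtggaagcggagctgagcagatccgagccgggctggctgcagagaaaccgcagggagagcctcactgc
This core was in 6.77% of 35116 promoter windows and in some window of 12 of 21 chaperone members found in the table. The first share is per window and the second per gene, which may have several windows. Here and for the motifs below they are not directly comparable. A match describes the letters and is no evidence of binding.

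Genes of cholesterol synthesis and uptake fell as a block. Of 26 members tested 25 fell and 0 rose (median -1.35), and the member that did not pass, PMVK, was at -0.22. The count was 24 with only library 1 for CKI and 24 with a batch term for the libraries that carry liver transcripts. HMGCS1, which makes the precursor of mevalonate, was at 78.1, 97.9 and 94.4 CPM with CKI and gefitinib and 429, 448 and 408 CPM with gefitinib (-2.25 ± 0.11, adjusted p = 3.6e-20). SQLE, which epoxidises squalene, was at 65.2, 68.2 and 65.2 CPM against 164, 176 and 169 CPM with gefitinib (-1.36 ± 0.08, adjusted p = 4.45e-17). FDFT1, the squalene synthase, was at 103, 113 and 118 CPM against 359, 352 and 342 CPM with gefitinib (-1.66 ± 0.10). MSMO1, a demethylating enzyme of the later pathway, fell by 1.73 ± 0.12. The falls thus covered early, middle and late steps of the pathway. SREBF2, the gene of an SREBP transcription factor, fell by 0.73, a member chosen for its role after its value was seen.

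Fatty acid synthesis genes moved the same way. Of 15 members 11 fell and 0 rose (median -0.80; 11 and 1 with library-size scaling). SCD, which desaturates fatty acids, was at 455, 463 and 456 CPM with CKI and gefitinib and 1530, 1680 and 1570 CPM with gefitinib (-1.80 ± 0.13). ACSS2, which makes acetyl-CoA from acetate, was at 52.4, 56.2 and 56.4 CPM against 164, 161 and 158 CPM with gefitinib (-1.55 ± 0.09, adjusted p = 2.18e-17). LPIN1, a phosphatidate phosphatase, and FADS1, a desaturase, fell by 1.25 ± 0.11 and 1.00 ± 0.09.

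Interferon-stimulated genes were lower, with exceptions. Of 35 members 25 fell and 2 rose (median -0.57). IRF9, a DNA-binding subunit of the complex that switches on these genes, was at 24.3, 22.6 and 23.6 CPM with CKI and gefitinib and 57.6, 64.4 and 73.8 CPM with gefitinib (-1.47 ± 0.10, adjusted p = 1.87e-15). IFITM1, which restricts virus entry, was at 15.5, 20.5 and 21.2 CPM against 58.7, 64.7 and 68.3 CPM with gefitinib (-1.75 ± 0.13). The antiviral genes IFI44L and OAS2 fell by 2.49 ± 0.19 and 1.96 ± 0.16. The exceptions, named after their values were seen, were ISG20, an antiviral exonuclease, at 0.79 and OASL at 0.36. Summed blood cell markers were 187 to 191 CPM with CKI and gefitinib and 179 to 190 CPM with gefitinib. Most of this was CD68, at 161 to 162 CPM and 150 to 158 CPM, so the sum says little about the other members. Of 8 members tested 0 rose and 1 fell. CD79A was at 1.53 to 2.49 CPM with CKI and gefitinib and 4.78 to 6.39 CPM with gefitinib, and the T cell genes CD3D and CD3E were at or near 0.

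Genes of cell division were higher with CKI than with gefitinib alone. Of 32 mitosis members 31 rose and 0 fell (median 0.77, range 0.32 to 1.06), and CENPF, the remaining member, was at 0.32. CDC20, which activates the anaphase-promoting complex, was at 124, 129 and 142 CPM with CKI and gefitinib and 70.9, 63.3 and 71 CPM with gefitinib (0.94 ± 0.08, adjusted p = 3.24e-12). AURKB, a kinase of chromosome segregation, was at 93.5, 90.3 and 96.7 CPM against 47.5, 41.4 and 45.4 CPM with gefitinib (1.06 ± 0.10). KIF2C, a kinesin that depolymerises microtubules, and CENPA, the centromeric histone, rose by 0.90 ± 0.09 and 1.00 ± 0.11.

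Of 23 genes of homologous recombination and Fanconi repair 19 rose and 0 fell (median 0.66). EME1, a nuclease subunit that cuts branched DNA, was at 15.4, 11.8 and 12.3 CPM with CKI and gefitinib and 4.9, 4.88 and 4.96 CPM with gefitinib (1.42 ± 0.14). EXO1, which resects DNA ends, RAD54L, a recombination motor, and BRCA1 rose by 1.18 ± 0.12, 1.09 ± 0.12 and 0.82 ± 0.13.

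Of 38 replication genes 21 rose and 1 fell (median 0.44). CDC6, which loads the helicase, was at 74.1, 50.7 and 57.4 CPM with CKI and gefitinib and 23.3, 23.5 and 20.6 CPM with gefitinib (1.43 ± 0.11, adjusted p = 3.65e-14). The origin recognition genes ORC1 and ORC6 and the clamp loader subunit RFC4 rose by 1.19 ± 0.14, 0.98 ± 0.13 and 0.79 ± 0.11. The fall was that of MCM7, a subunit of the replicative helicase (-0.32), and MCM4, another subunit, rose by 0.55, both named after their values were seen. Of 23 G1 cyclins, kinases and inhibitors 7 rose and 3 fell, led by CCND3, a D-type cyclin (1.09 ± 0.10), CDKN2D, an inhibitor of CDK4 and CDK6 (1.16 ± 0.12), E2F1 (0.71 ± 0.11) and E2F7 (0.65 ± 0.12).

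Genes that report EGFR to ERK signalling rose. Of 28 members 21 rose and 0 fell (median 0.73, range 0.16 to 1.75), and 16 rose with only library 1 for CKI. Among the feedback inhibitors, DUSP5, a nuclear ERK phosphatase, was at 97.8, 82.4 and 84.6 CPM with CKI and gefitinib and 29.7, 30.8 and 30.6 CPM with gefitinib (1.54 ± 0.12, adjusted p = 3.65e-14). DUSP6, a cytosolic ERK phosphatase, was at 16.1, 14.9 and 14.9 CPM against 7.07, 8.02 and 6.51 CPM with gefitinib (1.09 ± 0.13). SPRY4, which restrains the pathway at the receptor, rose by 1.28 ± 0.17. The ligand TGFA, which activates EGFR, was at 24.6, 23.1 and 25.3 CPM against 8.95, 11.7 and 9.63 CPM with gefitinib (1.27 ± 0.14). The receptors did not follow. EGFR was at 83.8, 98.7 and 74.1 CPM with CKI and gefitinib and 75.8, 82.7 and 86.5 CPM with gefitinib, overlapping groups (0.07 ± 0.16, adjusted p = 0.792). ERBB3 and MET were at -0.11 ± 0.11 (adjusted p = 0.458) and -0.14 ± 0.13 (adjusted p = 0.441). ERBB2, a partner receptor of EGFR, was at 118, 125 and 117 CPM against 182, 165 and 185 CPM with gefitinib and fell by 0.56 ± 0.11. AXL, a receptor linked to resistance against EGFR inhibitors, was at -0.40 ± 0.20 (adjusted p = 0.116), and was called in a fit of only the 6 libraries (adjusted p = 0.000186).

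Over 21 receptor tyrosine kinases 2 rose and 5 fell. IGF1R, the receptor of insulin-like growth factor 1, fell by 0.46 ± 0.09, and MST1R and DDR1 by 0.47 ± 0.12 and 0.38 ± 0.12. MST1R lost its call with only library 1 for CKI (adjusted p = 0.0847), and DDR1 without library 1 with CKI (adjusted p = 0.0665) or library 3 with gefitinib (adjusted p = 0.111). Without library 1 with CKI, or with it as the sole CKI library, 3 members fell. Of 28 immediate early genes 15 rose and 2 fell (median 0.72). ARC, an effector of synaptic plasticity, was at 11.7, 9.65 and 8.54 CPM with CKI and gefitinib and 1.03, 0.639 and 0.692 CPM with gefitinib (3.66 ± 0.21, adjusted p = 5.53e-18). NR4A1, an orphan nuclear receptor, was at 49, 41.1 and 37.8 CPM against 16.8, 13.6 and 21.6 CPM with gefitinib (1.30 ± 0.18). DUSP1, a stress-induced phosphatase of p38 and JNK, rose by 0.91 ± 0.13. FOS was at 107, 109 and 115 CPM against 98.6, 86.3 and 91.7 CPM with gefitinib and did not pass (0.26 ± 0.25, adjusted p = 0.469).

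**Figure D2:**
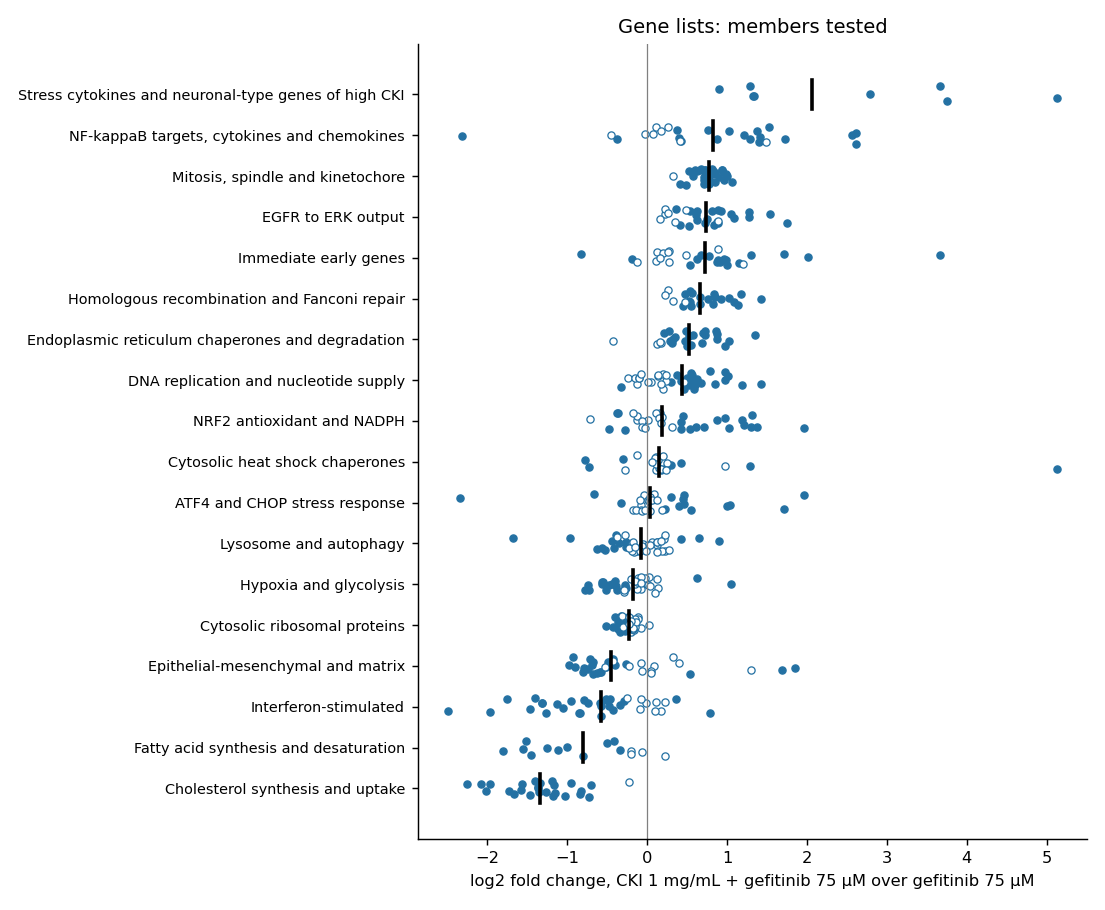
log2 fold change of each tested list member, with CKI and gefitinib over gefitinib alone, in 18 lists; filled points passed adjusted p under 0.05, open points did not, and bars mark medians. All 26 cholesterol members lie left of 0 and all 32 mitosis members right of it.

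Cytokine and chemokine genes rose. Of 26 NF-kappaB targets 16 rose and 2 fell (median 0.82, range -2.31 to 2.61). CXCL8, a neutrophil-attracting chemokine, was at 24.1, 15.5 and 16 CPM with CKI and gefitinib and 4.11, 2.5 and 2.54 CPM with gefitinib (2.61 ± 0.39, adjusted p = 2.21e-06). NFKB2, a subunit of the noncanonical pathway, was at 363, 288 and 304 CPM against 150, 149 and 169 CPM with gefitinib (1.03 ± 0.14). IL11, a cytokine of the interleukin 6 family, PTX3, a soluble pattern recognition protein, and PTGS2, the inducible cyclooxygenase, rose by 0.88 ± 0.10, 1.21 ± 0.17 and 1.53 ± 0.22. The largest fall in the list, chosen after seeing it, was CCL2, a monocyte-attracting chemokine, at 0.865 CPM with CKI and gefitinib and 4.15 CPM with gefitinib on average (-2.31). IL24, a cytokine of the interleukin 10 family, was at 58.6, 54.6 and 53.5 CPM against 5.32, 3.6 and 3.52 CPM with gefitinib (3.75 ± 0.25, adjusted p = 1.05e-14). The neurotrophin receptor gene NGFR was at 2.66, 2.43 and 3.19 CPM against 0.363, 0.232 and 0.577 CPM with gefitinib (2.79 ± 0.33). Both belong to a list of 8 stress cytokines and neuronal-type genes that was drawn from these libraries at a higher CKI dose, and all 8 rose.

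Chaperones and degradation factors of the endoplasmic reticulum rose broadly. Of 27 members 23 rose and 0 fell (median 0.52). HYOU1, a chaperone of the HSP70 family in that compartment, was at 603, 464 and 436 CPM with CKI and gefitinib and 275, 266 and 282 CPM with gefitinib (0.87 ± 0.09, adjusted p = 1.97e-10). HSPA5, the sensor chaperone BiP, was at 2290, 1540 and 1600 CPM against 1010, 1020 and 966 CPM with gefitinib (0.86 ± 0.09). MANF, a secreted stress protein, was at 229, 129 and 158 CPM against 83.3, 85 and 83.3 CPM with gefitinib (1.03 ± 0.11). Library 1 was the highest with CKI for all 3, and the groups did not overlap. Without it 18 members rose and 1 fell. DNAJB11, a co-chaperone of BiP, rose by 0.70 ± 0.08.

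The ATF4 and CHOP branch, which controls amino acid supply under stress, rose in part. Of 31 members 11 rose and 3 fell (median 0.04), with 7 rises without library 1 with CKI and 11 with that library as the sole CKI library. SLC7A11, the cystine importer, was at 167, 150 and 148 CPM with CKI and gefitinib and 37.8, 45.1 and 36.4 CPM with gefitinib (1.96 ± 0.14, adjusted p = 2.6e-14). ATF3, a stress transcription factor, was at 110, 88 and 96.1 CPM against 28.7, 29.5 and 30.8 CPM with gefitinib (1.72 ± 0.14). PPP1R15A, which restores translation, and SLC3A2, the partner chain of SLC7A11, rose by 1.04 ± 0.14 and 0.55 ± 0.08. ATF4 itself was at -0.08, and TRIB3 and PSAT1 at -0.02 and -0.04, without a call. Of 19 cytosolic aminoacyl-tRNA synthetases 2 rose and 3 fell, with WARS at -0.58 ± 0.08 and the rises, named after their values were seen, in FARSA (0.44 ± 0.12) and FARSB (0.27 ± 0.09). The counts were 1 and 1 without library 2 with CKI, without library 1 with gefitinib, or with library 1 as the sole CKI library, and 2 and 1 without library 1 with CKI or with library-size scaling. They were 1 and 2 without library 3 of either group or with the batch term. QARS and DARS were at -0.22 ± 0.08 and -0.31 ± 0.11 and lost the call with library-size scaling (adjusted p = 0.144 and 0.188). QARS also lost it without any 1 library with CKI or library 1 or 3 with gefitinib (adjusted p = 0.0511 to 0.0618), and DARS without library 1 or 2 of either group (adjusted p = 0.053 to 0.142).

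The promoter table holds 2 windows for ATF3, and 1 is shown because it carries TGATGNAA, the amino acid response element bound by ATF4, searched on both strands. It is chr1:212565157-212565456 on the plus strand of GRCh38.p14, and the match in capitals begins at -191.
ATF3: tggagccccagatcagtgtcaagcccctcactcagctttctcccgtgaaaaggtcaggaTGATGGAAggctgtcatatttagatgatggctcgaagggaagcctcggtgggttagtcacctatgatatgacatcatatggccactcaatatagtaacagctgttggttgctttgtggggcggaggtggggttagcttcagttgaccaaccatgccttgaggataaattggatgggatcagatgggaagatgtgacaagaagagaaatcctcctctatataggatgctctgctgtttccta
The element was in 3.62% of all windows and, per gene, in some window of 7 of 25 members found in the table.

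Of 33 NRF2 antioxidant and NADPH genes 15 rose and 4 fell (median 0.19; 11 and 4 with only library 1 for CKI). SRXN1, which repairs peroxiredoxins, was at 355, 388 and 370 CPM with CKI and gefitinib and 151, 146 and 156 CPM with gefitinib (1.30 ± 0.09, adjusted p = 1.41e-14). TRIM16 and its near-identical copy TRIM16L, between which the counting may split reads, rose by 0.88 ± 0.08 and 1.21 ± 0.08. Members fell too: FTH1, the ferritin heavy chain, and HMOX1, which degrades heme, were at -0.47 and -0.37, named after their values were seen.

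The aryl hydrocarbon receptor is a sensor of plant and xenobiotic ligands. Of 9 members tested and not set apart 3 rose and 2 fell. CYP1A1, its classical target and a monooxygenase of foreign compounds, was at 15.6, 20.3 and 19.6 CPM with CKI and gefitinib and 2.48, 2.09 and 1.96 CPM with gefitinib (3.08 ± 0.21, adjusted p = 8.87e-16). TIPARP, a feedback inhibitor of the receptor, was at 94.6, 95.4 and 99.1 CPM against 53.6, 48.3 and 49.8 CPM with gefitinib (0.93 ± 0.13). NQO1, a quinone reductase, rose by 0.45 ± 0.09 and was at 0.25 with only library 1 for CKI (adjusted p = 0.112). CYP1B1, another target, was at 0.02 and AHRR, the receptor's repressor, at -0.02, without a call, and AHR fell by 0.39. The window of CYP1A1 is shown because its rise was the largest of the list. It is chr15:74725479-74725778 on the minus strand of GRCh38.p14, and the capitals, which begin at -57, mark GCGTG, the core to which the receptor binds, searched on both strands.
CYP1A1: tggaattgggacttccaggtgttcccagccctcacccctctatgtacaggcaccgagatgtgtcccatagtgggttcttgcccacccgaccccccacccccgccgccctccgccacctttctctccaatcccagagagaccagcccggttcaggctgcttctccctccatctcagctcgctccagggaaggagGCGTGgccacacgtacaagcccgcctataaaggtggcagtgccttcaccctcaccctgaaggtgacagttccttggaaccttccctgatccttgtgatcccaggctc
This short core was in 36.5% of all windows and, per gene, in some window of 7 of 8 members found in the table. Among drug-metabolising enzymes that were not set apart 3 of 15 rose and 3 fell, with EPHX1, an epoxide hydrolase, at 0.62 ± 0.09 and GSTM3, a glutathione transferase, at 0.54 ± 0.10. CYP1A2 and CYP3A5 were among the genes set apart.

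Mesenchymal and matrix genes were lower. Of 32 members 18 fell and 3 rose (median -0.46). TGFB2, a growth factor of this programme, SNAI2, a repressor of epithelial genes, and LOXL2, a collagen crosslinker, fell by 0.93 ± 0.11, 0.74 ± 0.10 and 0.80 ± 0.11. Summed fibroblast markers were 367 to 452 CPM with CKI and gefitinib and 600 to 688 CPM with gefitinib, mostly from COL1A1 and COL1A2, while POSTN, THY1 and DCN were at or near 0; their part in the result was not tested. Of 18 YAP and TEAD targets 7 fell and 1 rose, led by ANKRD1, a cardiac-type ankyrin repeat gene, at 27.1, 33.1 and 40.1 CPM against 75.9, 85.5 and 78.5 CPM with gefitinib (-1.26 ± 0.14). AJUBA and ARHGEF17 fell by 0.57 ± 0.08 and 0.56 ± 0.14. Of 36 hypoxia and glycolysis genes 15 fell and 2 rose (median -0.17). PFKFB4, a regulator of glycolytic flux, NDRG1, ALDOC, an aldolase, and PKM, a pyruvate kinase, fell by 0.77 ± 0.08, 0.72 ± 0.08, 0.74 ± 0.10 and 0.55 ± 0.09.

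Smaller or mixed shifts were seen elsewhere, and lists whose share of calls lies near 17.3% say nothing particular of their members. Of 35 cytosolic ribosomal protein genes 15 fell and 0 rose (median -0.22), with RPL10 at -0.51 ± 0.08, RPL3 at -0.40 ± 0.08, RPL6 at -0.36 ± 0.08 and RPS23 at -0.32 ± 0.08. That count was 6 with library-size scaling, 5, 7 and 20 without library 1, 2 or 3 with CKI, and 7, 9 and 9 without library 1, 2 or 3 with gefitinib. Of 30 nuclear genes of the respiratory chain 6 fell and 0 rose, among them NDUFA9 of complex I (-0.35 ± 0.08) and SDHC and SDHA of complex II (-0.47 ± 0.08 and -0.33 ± 0.07). Of 31 proteasome subunits 0 rose and 1 fell, and with library-size scaling 9 rose and 0 fell. That scaling moved calls upward over all genes, with 3793 higher and 1873 lower. Of 42 lysosome and autophagy genes 3 rose and 11 fell (median -0.08), a balance that library-size scaling turned to 10 and 7 (median 0.02). GPNMB, a melanosomal and lysosomal glycoprotein, was at 63.1, 73.2 and 75.1 CPM with CKI and gefitinib and 228, 232 and 218 CPM with gefitinib (-1.68 ± 0.17). The cathepsins CTSB and CTSA and the cholesterol exporter NPC1 fell by 0.56 ± 0.08, 0.62 ± 0.11 and 0.53 ± 0.08.

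Of 18 histone genes 4 rose and 8 fell, and the falls were led by HIST1H2AC (-1.20 ± 0.11), HIST2H2BE (-1.12 ± 0.14), HIST1H2BK (-1.04 ± 0.10) and HIST1H4H (-0.85 ± 0.14), members of near-identical families. The rises, named after their values were seen, were HIST1H1E (2.01 ± 0.45, at 0.727 CPM with CKI and gefitinib and 0.176 CPM with gefitinib on average), HIST1H1B (0.32 and 0.058 CPM, below the floor with gefitinib), H1F0 (0.46 ± 0.09) and H2AFX (0.44 ± 0.14). Of 26 p53 targets 10 rose and 4 fell. AEN, an apoptosis-enhancing nuclease, GADD45A, a growth arrest gene, TNFRSF10A, a death receptor, and MDM2, the ubiquitin ligase of p53, rose by 1.20 ± 0.11, 1.04 ± 0.20, 0.59 ± 0.12 and 0.52 ± 0.11. Of 17 BCL2 family members 4 rose and 1 fell, with PMAIP1, a sensitiser of apoptosis, at 0.52 ± 0.12. The antiapoptotic BCL2A1 was at 2.17, 0.98 and 1.43 CPM with CKI and gefitinib and 0.121, 0.349 and 0.346 CPM with gefitinib, near the floor (2.46 ± 0.53). BAK1 and BIK were at 0.31 ± 0.10 and 0.85 ± 0.25, and lost the call without library 1 with CKI or library 2 with gefitinib (BAK1, adjusted p = 0.0535 and 0.0521) or with library 1 as the sole CKI library (BIK, adjusted p = 0.0966). Of 10 metallothionein and zinc genes 4 rose, and 2 did so with only library 1 for CKI or without library 3 with CKI. SLC30A1, a zinc exporter, and MTF1, the zinc-sensing factor, rose by 0.53 ± 0.13 and 0.56 ± 0.14. MT1L was at 0.54 ± 0.16 and lost the call with the batch term (adjusted p = 0.0678) or without library 3 with CKI (adjusted p = 0.0554). Of 17 small nucleolar RNA host genes 2 rose and 1 fell, with SNHG17 and SNHG15 at 0.58 ± 0.11 and 0.58 ± 0.18; SNHG15 lost the call without library 3 with gefitinib (adjusted p = 0.0582). Of 11 efflux transporters 2 rose.

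The addition of CKI without gefitinib was compared through 1 mg/mL CKI alone against untreated cells, which share no library with the groups above. There 4401 genes passed (27.9%), 13.2% of all genes higher and 14.7% lower, which are the background for the shares and list counts with CKI alone. Of the 2648 genes higher with CKI beside gefitinib, 766 (28.9%) were also higher with CKI alone and 350 (13.2%) were lower. Of the 2730 lower genes, 796 (29.2%) were also lower with CKI alone and 252 (9.23%) were higher. The 766 genes were 36.9% of the 2077 higher with CKI alone, and the 796 genes 34.3% of the 2321 lower. The difference between both additions passed for 3303 genes (20.9%), 1606 positive (10.2%) and 1697 negative (10.7%).

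Cholesterol genes went opposite ways. With CKI alone 24 of 26 members rose and 2 fell (median 1.00), and the difference was negative for 24 (median -2.30). HMGCS1 was at 300, 265 and 319 CPM with CKI alone and 129, 116 and 115 CPM in untreated cells, a rise of 1.30 ± 0.11, and the difference was -3.55 ± 0.15 (adjusted p = 4.84e-22). MSMO1 and ACAT2, an acetyl-CoA acetyltransferase, rose by 1.83 ± 0.12 and 1.22 ± 0.14 with CKI alone, with differences of -3.56 ± 0.17 and -3.22 ± 0.20. HMGCS1 averaged 90.1 CPM with both agents and 428 CPM with gefitinib, and 295 CPM with CKI alone and 120 CPM in untreated cells. ERVV-2, an endogenous retroviral envelope gene, was at 5.15, 6.08 and 5.31 CPM with both agents and 13.4, 15 and 14.5 CPM with gefitinib, and at 3.86, 3.58 and 2.65 CPM with CKI alone and 0.539, 1.22 and 0.434 CPM in untreated cells (difference -3.61 ± 0.34). Fatty acid genes showed 0 positive and 13 negative differences among 15 members.

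Cell division genes also went opposite ways. With CKI alone 0 of 32 mitosis genes rose and 32 fell (median -0.84), 37 of 38 replication genes fell and 20 of 23 repair genes fell. The difference was positive for 32, 38 and 22 members (medians 1.60, 1.00 and 1.27). CDC20 was at 184, 204 and 182 CPM with CKI alone and 354, 390 and 424 CPM in untreated cells, and the difference was 1.98 ± 0.12 (adjusted p = 1.1e-17). CDC20 averaged 131 CPM with both agents and 68.4 CPM with gefitinib, and 190 CPM with CKI alone and 390 CPM in untreated cells. The genes with the largest positive differences were HSPA6 (4.91 ± 0.29), ARC (3.58 ± 0.34), PGF, a placental growth factor (2.95 ± 0.27), and CX3CL1, a membrane-bound chemokine (2.47 ± 0.26). HSPA6 was at 2.54, 3.25 and 1.84 CPM with CKI alone and 1.67, 2.71 and 2.22 CPM in untreated cells, and ARC at 1.57, 1.18 and 0.983 CPM against 0.833, 1.35 and 1.36 CPM. HSPA6 and ARC did not pass with CKI alone (adjusted p = 0.488 and 0.847). PGF was at 5.9, 6.24 and 6.23 CPM with both agents and 1.57, 1.1 and 1.84 CPM with gefitinib, but at 2.95, 3.95 and 2.99 CPM with CKI alone and 4.9, 6.19 and 7.81 CPM in untreated cells. CX3CL1 was at 44.4, 41.5 and 41.2 CPM with both agents and 18, 14 and 17.3 CPM with gefitinib, but at 19.7, 21.4 and 19.2 CPM with CKI alone and 36.9, 44.6 and 47.6 CPM in untreated cells. CKI thus went with higher levels of both genes beside gefitinib and lower levels without it.

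**Figure D3:**
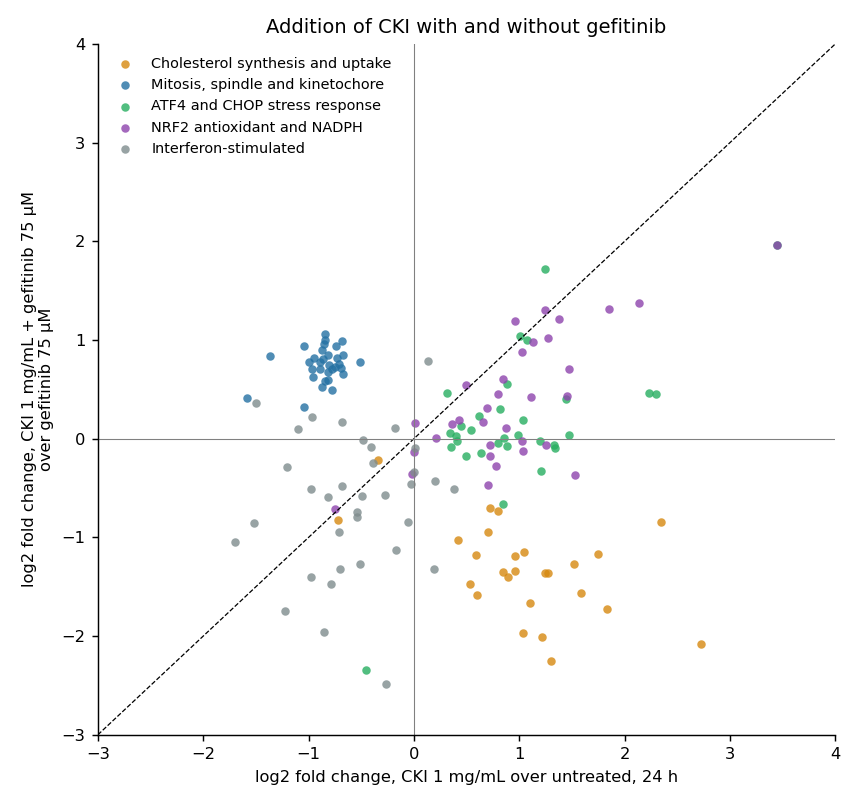
Each point is 1 list member, with its log2 fold change for adding CKI without gefitinib on the horizontal axis and with 75 µM gefitinib on the vertical axis; the dashed line marks equal change. Most cholesterol genes lie at the lower right, mitosis genes at the upper left, and most ATF4 and CHOP genes right of 0 but near 0 vertically.

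Stress lists differed among themselves. With CKI alone 29 of 31 ATF4 and CHOP genes rose (median 0.88), and the difference was negative for 23 and positive for 0 (median -0.84). SLC7A11 rose to 137, 113 and 137 CPM with CKI alone, against 13.1, 11.7 and 10.6 CPM in untreated cells (3.45 ± 0.16), a difference of -1.48 ± 0.21. CYP1A1 rose to 27.9, 29.2 and 27 CPM with CKI alone, against 1.08, 0.58 and 1.25 CPM in untreated cells (4.82 ± 0.23), a difference of -1.73 ± 0.34 (adjusted p = 0.000133). NRF2 genes rose in 26 of 33 with CKI alone, with 14 negative differences, and lysosome genes in 24 of 42, with 28 negative and 1 positive difference. With CKI alone 12 of 27 endoplasmic reticulum genes rose and 1 fell, and 2 of 23 cytosolic chaperones rose and 4 fell. The differences were positive for 8 and negative for 0 of the endoplasmic reticulum genes (median 0.31). They were positive for 4 and negative for 2 of the cytosolic chaperones (median 0.32). ATF3 and PPP1R15A were at 0.48 ± 0.21 and 0.02 ± 0.19 without passing (adjusted p = 0.101 and 0.957). Of 28 immediate early genes 4 rose and 9 fell with CKI alone, and 14 differences were positive. ERK output genes rose with CKI alone too, in 16 of 28 with 3 falls, and 8 differences were positive and 1 negative. NF-kappaB targets rose in 14 of 26 with CKI alone and fell in 3, and 4 differences were positive and 5 negative. Interferon-stimulated genes fell in both settings, in 23 of 35 with CKI alone, and 7 differences were positive and 12 negative.

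**Figure D4:**
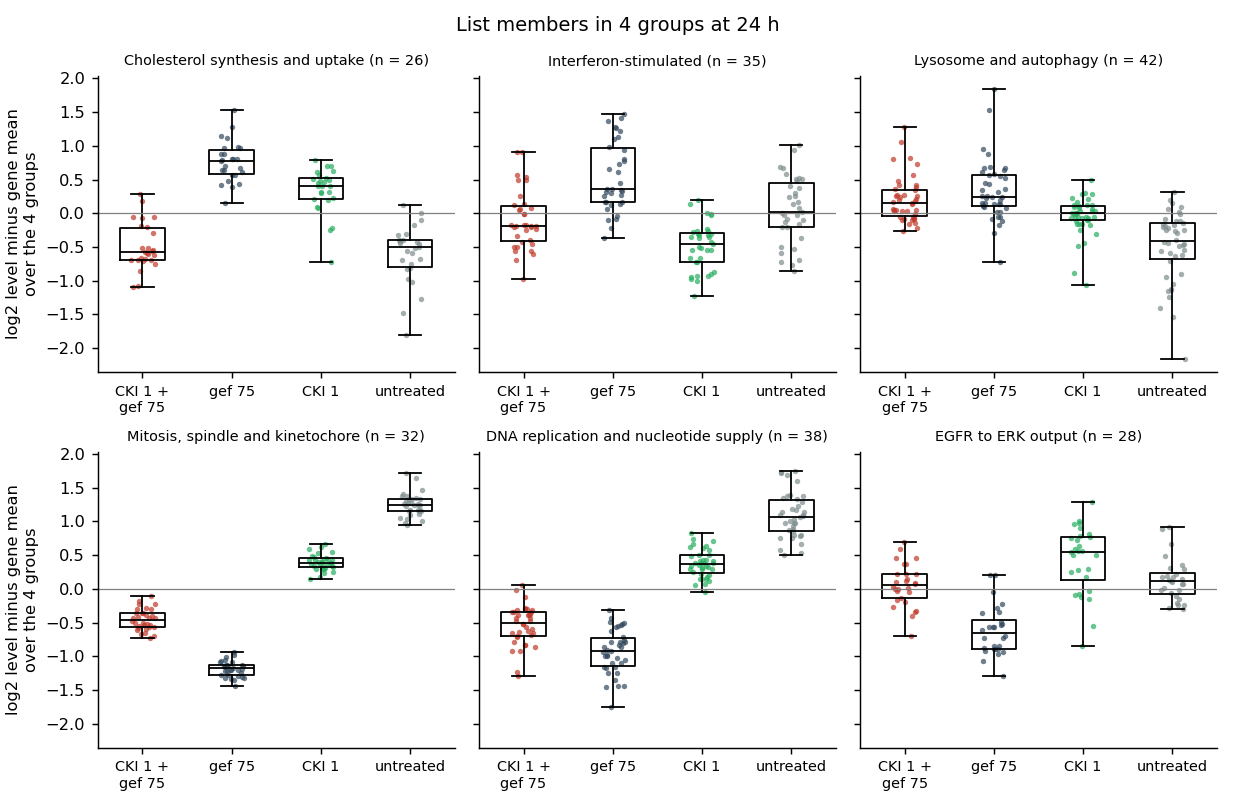
log2 of the mean CPM plus 0.5 of each list member minus that gene's mean over the 4 groups, in cells with both agents, gefitinib 75 µM, CKI 1 mg/mL and no agent at 24 h; boxes show quartiles and whiskers the full range. Cholesterol genes are highest with gefitinib alone, and mitosis and replication genes are lowest there.

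Adding the same CKI dose to 50 µM gefitinib, again against its own controls, changed 5015 genes (31.8%), 15.5% of all genes higher and 16.2% lower. The difference between the responses at 75 and 50 µM passed for 20 genes (0.127%), 15 positive (0.095%) and 5 negative (0.0317%), and for 35 in DESeq2. At 50 µM cholesterol genes fell in 25 of 26 (median -1.11), mitosis genes rose in 24 of 32 (median 0.46) and ERK output genes rose in 19 of 28 and fell in 2. A difference that missed the threshold does not show equal responses. The largest differences were in stress and immediate early genes. HSPA6 was at 7.31, 7.55 and 9.65 CPM with CKI and 50 µM gefitinib and 1.61, 1.6 and 1.45 CPM with 50 µM gefitinib, a rise of 2.40 and a difference of 2.73 ± 0.29 (adjusted p = 5.48e-08). ARC showed a difference of 2.37 ± 0.37 (adjusted p = 0.000322). FOSB was at 16.1, 14 and 13.1 CPM with CKI and 75 µM gefitinib and 6.89, 7.32 and 8.01 CPM with 75 µM gefitinib, but at 1.99, 1.81 and 1.36 CPM with CKI and 50 µM gefitinib and 7.54, 8.83 and 5.14 CPM with 50 µM gefitinib (difference 3.02 ± 0.36, adjusted p = 1.31e-06). FOS fell to 29.7, 28.4 and 18.7 CPM with CKI and 50 µM gefitinib, against 109, 102 and 98.2 CPM with 50 µM gefitinib, and its difference was 2.26 ± 0.37. Negative differences, with adjusted p from 0.00421 to 0.0471, were those of IFI44L (-1.51 ± 0.27), OAS2 (-1.07 ± 0.23), ARNT2, a partner of basic helix-loop-helix factors (-0.98 ± 0.20), and GLIPR1 (-0.66 ± 0.15). OAS2, ARNT2 and GLIPR1 each lost the call in several refits that left out 1 library, and the count of genes ran from 7 without library 2 with 50 µM gefitinib to 27 without library 3 of that group.

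Raising CKI to 2 mg/mL beside 75 µM gefitinib changed 6068 genes against 1 mg/mL (38.4%), 3057 higher (19.4%) and 3011 lower (19.1%). With library-size scaling 2454 were higher and 3535 lower. All 3 libraries at 2 mg/mL carried liver transcripts, and without library 1 at 1 mg/mL, where both groups then carried them, 5398 genes passed. HSPA6 was at 2.47, 86.6 and 690 CPM on average with 0, 1 and 2 mg/mL CKI, and rose between the last doses by 2.99 ± 0.13 (adjusted p = 4.2e-22). ARC was at 0.786, 9.96 and 61.4 CPM over the same doses (2.62 ± 0.14). GADD45G, a growth arrest gene, at 45.3, 34.3 and 41.3 CPM with 2 mg/mL and 5.15, 6.08 and 4.99 CPM with 1 mg/mL, and RGS2, an inhibitor of G protein signalling, rose by 2.90 ± 0.21 and 2.68 ± 0.19. HSPA6 and ARC thus climbed at each dose step, while other genes were highest at 1 mg/mL. IL24 was at 12.3, 14.4 and 11.5 CPM with 2 mg/mL and 58.6, 54.6 and 53.5 CPM with 1 mg/mL (-2.13 ± 0.21), above 4.15 CPM on average without CKI. KLHDC7B was at 17.2, 25.5 and 28.4 CPM with 2 mg/mL and 122, 98.6 and 87.7 CPM with 1 mg/mL (-2.12 ± 0.20), and SECTM1, a secreted and transmembrane immune protein, at 8.69, 8.3 and 9.94 CPM against 25.7, 40.6 and 38.4 CPM (-1.95 ± 0.18). GLP2R, the receptor of glucagon-like peptide 2, fell by 1.91 ± 0.16 but did not peak at 1 mg/mL. It averaged 23.5, 18.6 and 4.92 CPM with 0, 1 and 2 mg/mL CKI.

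The heat shock list, of which 6 of 23 members rose at 1 mg/mL, rose at 2 mg/mL in 19 of 23 members and fell in 0 (median 0.69). Mitosis genes rose further in 28 of 32 (median 0.56), replication genes in 29 of 38 and ERK output genes in 16 of 28 with 1 fall. Cholesterol genes moved little between the doses, with 7 falls, 0 rises and a median of -0.07; HMGCS1 averaged 428, 90.1 and 81.1 CPM over 0, 1 and 2 mg/mL. Among 31 ATF4 and CHOP genes 16 fell and 5 rose, and among 33 NRF2 genes 16 fell and 1 rose. Hypoxia and glycolysis genes rose in 21 of 36 and fell in 2.

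**Figure D5:**
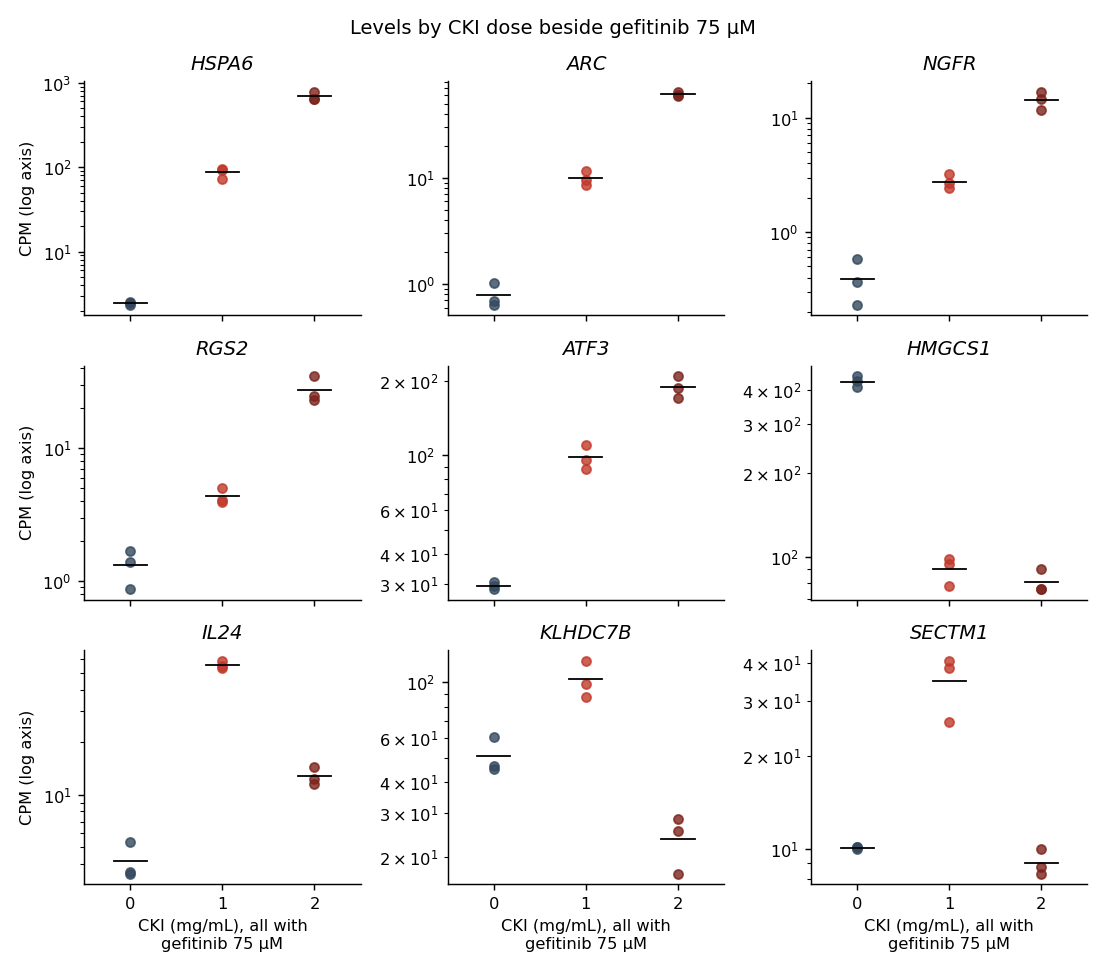
Level in CPM (log axis) of 9 genes at 0, 1 and 2 mg/mL CKI, all with 75 µM gefitinib; points are libraries and bars means of 3. HSPA6 and ARC climb at both steps, HMGCS1 falls at the first step only, and IL24, KLHDC7B and SECTM1 are highest at 1 mg/mL.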

How the data were processed

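Libraries of total RNA from H1975 cells were unstranded and read from both ends. The authors deposited raw counts per gene symbol for all 48 libraries, and per the submitters' processing notes used Trim Galore 0.4.2, STAR 2.5.3a, edgeR and the hg19 build; the counting tool is not given in the sources used here. Without strand, reads of overlapping antisense genes cannot be told apart. Of 27978 symbols 4194 were at 0 throughout.

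Counts were analysed with edgeR 4.0.16 in R 4.3.3: genes were kept with filterByExpr (minimum count 10, minimum total 15), leaving 15789 genes and 99.97% of counts, scaled with TMM factors, and fitted with robust quasi-likelihood over all 48 libraries as 16 group means, with 32 residual degrees of freedom, so that the spread is shared. P-values were adjusted by Benjamini-Hochberg over all genes, with a threshold of 0.05. Differences between additions are contrasts of the same fit. Replicates of a group differed by more than sampling noise (chi-square per gene 3.97 to 14.5).

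Genes were set apart if listed as liver or intestine markers, or if their lowest CPM in the 10 libraries with over 1000 ALB counts exceeded their highest CPM in the other 38. Named were the 10 largest rises and falls whose groups did not overlap and whose higher mean reached 5 CPM, from each list with at least 3 calls the 4 members of smallest p that moved in its more frequent direction, 5 receptor genes, and the 4 largest effects in each direction of the other comparisons. The lists and groups were chosen with earlier results of these data known. Promoter windows came from RefSeq (GRCh38.p14), another build than the counts use, and were matched by symbol. Alternatives were DESeq2 1.42.0, other scalings, filters and thresholds, a batch term, a replicate block and leaving out libraries. Some genes that the naming rule gives are not reported here.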

Additional observations from a re-analysis of the deposited data

Results flagged for a closer look

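The effect of adding CKI differed between cells with 75 µM gefitinib and cells without it for 3303 genes by the test of the difference in edgeR (adjusted p under 0.05). Among the 10 largest rises and falls of the main comparison and the 4 largest differences in each direction, the log2 difference was positive for HSPA6 (4.91), ARC (3.58), PGF (2.95), CX3CL1 (2.47), HES7 (2.42), CXCL8 (1.94), HTRA3 (1.6) and NKD2 (1.55). It was negative for ERVV-2 (-3.61), MSMO1 (-3.56), HMGCS1 (-3.55), ACAT2 (-3.22), MIR210HG (-2.63), IFI44L (-2.23), OLFML3 (-1.99), WISP2 (-1.95), CYP1A1 (-1.73) and NKAIN4 (-1.56). Libraries 2 and 3 with CKI and gefitinib carry liver transcripts.

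The effect differed between 75 and 50 µM gefitinib for 20 genes by the same kind of test. By the same choice of genes, the log2 difference was positive for FOSB (3.02), HSPA6 (2.73), ARC (2.37) and FOS (2.26). It was negative for IFI44L (-1.51), OAS2 (-1.07), ARNT2 (-0.98) and GLIPR1 (-0.66).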

How the results depend on the processing

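The count of genes changed by adding CKI to 75 µM gefitinib was 5456. It was 5442 with relative log expression factors, 5473 with DESeq2, 5666 with library-size scaling, 4934 without a filter, 6649 with only the 6 libraries fitted, 3687 at adjusted p under 0.01, 4435 with a batch term for the ALB-carrying libraries and 3927 with library 1 as the sole CKI library. In that last fit 5406 of the 5456 genes had the same sign. Library 1 and the gefitinib libraries had also given the 5456 calls, so this agreement was largely built in and is no independent check. The batch term, fitted to the same libraries, left 4200 called with the same sign. Leaving out 1 library gave 4134 to 4909 genes, 4932 to 5398 for the CKI dose, 2709 to 3135 for the difference from CKI alone and 7 to 27 for the difference from 50 µM. At adjusted p under 0.01 the difference from CKI alone passed for 2015 genes and that from 50 µM for 9. The difference from 50 µM passed for 32 genes with library 1 as the sole CKI library and 35 with DESeq2, so its count is less settled than the others. It was 11 without library 3 with CKI and 75 µM gefitinib, 8 without library 2 with 75 µM gefitinib, 9 and 10 without library 1 or 3 with CKI and 50 µM gefitinib, 7 without library 2 and 27 without library 3 with 50 µM gefitinib. CYP1A2, set apart, was called with all libraries and was at 0 with library 1 as the sole CKI library. The cause of these shifts was not tested. With the replicate number as a block 5352, 3243, 15 and 5966 genes passed for the addition, the difference from CKI alone, that from 50 µM and the dose. Deviations from the group means correlated at r = -0.0948, -0.0506 and -0.113 between same-numbered libraries with CKI and gefitinib and with gefitinib. These few values, from groups of which 1 holds liver transcripts in part, cannot show whether a number marks a shared culture or day. Depth limits genes near the floor, such as BCL2A1.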
